A study of Nannochloropsis oceanica strain IMET1 with 6 samples.

Results

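The cis-interactions described here are pairs of 1-kb genomic bins on the same chromosome of the marine microalga Nannochloropsis oceanica whose centres lie over 10 kb and up to 100 kb apart, a range between the contacts of near neighbours and those of distant loci. They were chosen by this distance alone from the deposited lists of significant cis-interactions. The lists held 1849 such entries of 10446, which came to 1702 distinct bin pairs. C0 listed 571 of its 4456 cis-interactions in this range, N1 22 of 948 and N2 1256 of 5042.

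Hi-C was performed on the strain IMET1, for which the labels give no genetic change. C0 denotes nitrogen-replete (NR) cells harvested in the logarithmic phase from modified f/2 medium. N1 and N2 denote cells of the same cultures that were washed, resuspended in nitrogen-free f/2 medium and sampled after 1 and 2 days of nitrogen deprivation (ND). By the labels, the ND cultures were also kept under weaker continuous light than the C0 culture, so ND, light, washing and time in culture cannot be told apart. Each group had 2 replicates, 6 libraries in all, and the authors pooled the replicates before interactions were called.

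In Hi-C, DNA segments that lie close together in the nucleus are crosslinked, cut, ligated to each other and sequenced, so that each read pair records 1 contact between 2 loci. Contacts become rarer as the distance along the chromosome grows, because the chromatin fibre is a flexible chain. A bin pair is therefore called an interaction only where its contacts exceed the number usual for that distance. Contacts over these distances are the range in which loops and the insides of topologically associating domains are commonly seen in other eukaryotes. Nitrogen-starved cells of this alga are known for storing triacylglycerol, and the comparison asks how the contact landscape differed between NR and ND cells.

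For each bin pair, the contact count is the number of read pairs joining both bins in the pooled libraries. Each bin has a bias factor, where 1 is an average bin and a bin with a higher factor collects more contacts overall. The expected count is the number that the authors' distance model and the 2 bias factors gave for the pair, recovered here from the deposited p-value. The observed over expected ratio, hereafter the ratio, is the contact count divided by it. Since each group has 1 pooled list, there was no replicate spread and no test between groups. The intervals given are exact 95% intervals (Poisson for counts, Clopper-Pearson for shares, conditional binomial for ratios of counts), take the expected count of a pair as known, and cover counting error only. Those for numbers and shares of interactions treat each interaction as independent. Many interactions share a bin, so these intervals can be too narrow.

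Middle-range cis-interactions made up 24.9% of the N2 list (interval 23.7 to 26.1), 12.8% of the C0 list (11.8 to 13.8) and 2.32% of the N1 list (1.46 to 3.49). Leaving out any 1 chromosome kept these shares between 24.6% and 25.2%, between 12.5% and 13.0%, and between 1.98% and 2.44%. The number at N2, 1256 (1187 to 1327), was 2.20 times (1.99 to 2.43) that at C0, 571 (525 to 620), and N1 had 22 (13.8 to 33.3). The contacts in them summed to 14463, 279 and 27388 for C0, N1 and N2, or 6.52%, 0.958% and 12.4% of the contacts in each cis list. The intervals of C0 and N2 thus did not overlap, but they can be too narrow, and the spread between replicates of either is unknown.

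The excess at N2 was larger at longer distances. From 11 to 20 kb there were 353, 16 and 593 interactions in C0, N1 and N2, an N2 over C0 ratio of 1.68 (1.47 to 1.92). From 21 to 30 kb there were 100, 2 and 248, a ratio of 2.48 (1.96 to 3.16). From 31 to 50 kb the numbers were 75, 1 and 233, a ratio of 3.11 (2.39 to 4.09). From 51 to 100 kb they were 43, 3 and 182, a ratio of 4.23 (3.02 to 6.05). The interval of the nearest class did not overlap that of any further class, whereas the intervals of the 3 further classes overlapped each other. The bins of an interaction were a median of 18, 17 and 22 kb apart in C0, N1 and N2, and at most 99, 97 and 100 kb apart.

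**Figure D1:**
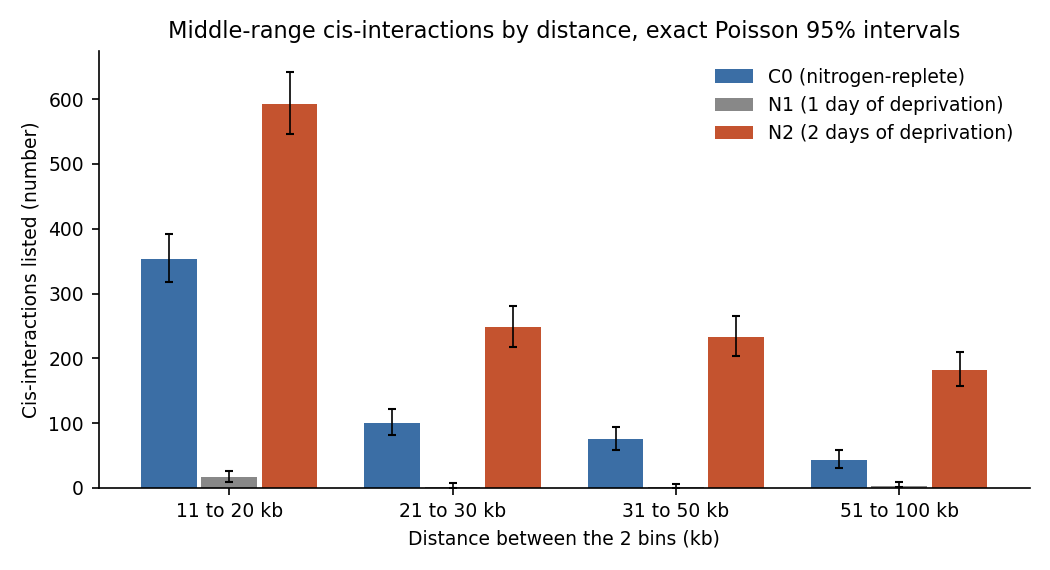
Number of middle-range cis-interactions (y axis) in 4 distance classes in kb (x axis) for C0, N1 and N2, with exact Poisson 95% intervals as error bars. N2 exceeds C0 in each class, from 593 against 353 at 11 to 20 kb to 182 against 43 at 51 to 100 kb, and N1 holds at most 16.

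The same comparison outside the range went otherwise. Interactions of 4 to 10 kb numbered 1438 at C0 and 1384 at N2, a ratio of 0.962 (0.893 to 1.04), and those of 2 to 3 kb numbered 2015 and 2206, a ratio of 1.09 (1.03 to 1.16). Above 100 kb the number was lower at N2, 196 against 432, a ratio of 0.454 (0.381 to 0.538). The edges of the range were not edges in the data at its near side, where 102 interactions of 10 kb and 73 of 11 kb were listed at C0 and 122 and 100 at N2, with median ratios of 3.43 and 3.76 at C0 and of 4.54 and 4.46 at N2. At its far side, C0 listed 6 interactions of 91 to 100 kb and 0 of 101 to 110 kb, and N2 listed 21 and 16. From 101 to 200 kb the 3 lists held 10, 0 and 71, so that the lower number at N2 above 100 kb lay beyond 200 kb, where C0 had 422 and N2 had 125.

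Individual contact counts were small. C0 interactions had a median of 24 contacts (range 8 to 68) where 5.07 were expected, with a median ratio of 4.66 (2.38 to 19.7). N2 interactions had a median of 20 contacts (7 to 88) where 3.11 were expected, with a median ratio of 6.42 (2.67 to 34.0). The few N1 interactions had a median of 13.5 contacts (6 to 22) where 1.35 were expected, with a median ratio of 10.6 (6.63 to 38.4). The median ratio was higher at longer distances. It went from 4.01 at 11 to 20 kb to 9.74 at 51 to 100 kb at C0, and from 5.18 to 10.3 at N2.

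The expected count of a pair sets the lowest ratio that can be listed. For a pair of average bins 11 kb apart the model gave 7.97, 2.66 and 4.24 contacts in C0, N1 and N2. At least 27, 17 and 19 contacts were then needed for a listing, or ratios of 3.39, 6.39 and 4.48. At 50 kb the lowest ratios were 7.68, 16.7 and 10.4, and at 100 kb they were 12.05, 26.1 and 16.0. Expected counts at N2 were between 0.532 and 0.603 times those at C0 at these distances, and those at N1 between 0.318 and 0.334 times. N2 thus listed more interactions than C0 although it needed a larger ratio to list one, and N1 needed the largest.

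**Figure D2:**
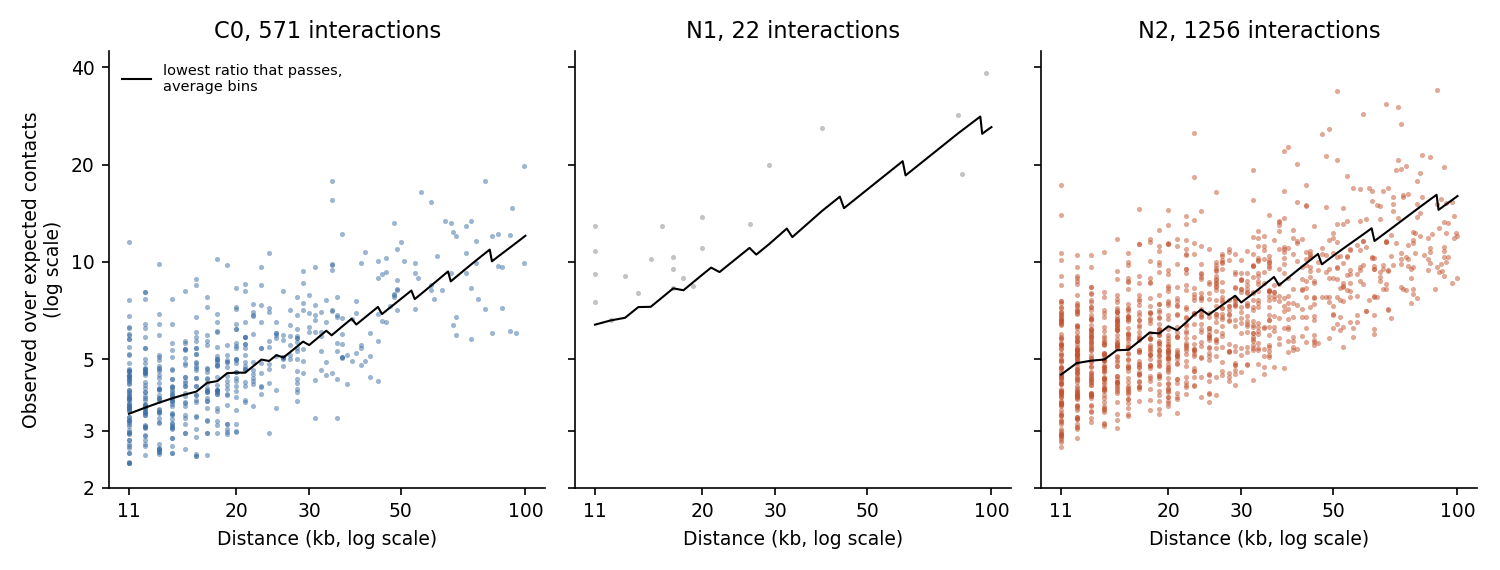
Ratio of observed to expected contacts (y axis, log scale) against distance in kb (x axis, log scale) for each middle-range cis-interaction at C0 (571 points), N1 (22) and N2 (1256). The black line is the lowest ratio that passes for average bins, from 3.39 at 11 kb to 12.05 at 100 kb at C0 and from 4.48 to 16.0 at N2; points below it belong to bins with higher bias factors.

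When the same ratio was required of every group, the gap between C0 and N2 was wider. At a ratio of at least 5 there were 243, 22 and 935 interactions in C0, N1 and N2. At a ratio of at least 8 there were 69, 19 and 393, an N2 over C0 ratio of 5.70 (4.40 to 7.47), and at a ratio of at least 10 there were 30, 13 and 212. Interactions whose own interval placed the ratio at 5 or above numbered 45, 15 and 308. In the nearest class of 11 to 20 kb, 10, 13 and 56 interactions had a ratio of at least 8, so N1 exceeded C0 there with a far smaller list. N1 and N2 also had the lower expected counts, and their part in these numbers was not tested.

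The contacts of the deeper lists were also reduced by calculation. Each listed interaction was given the exact binomial probability that it would still pass with fewer contacts, and the probabilities were added up. The first reduction followed the cis valid read pairs of each group, whose totals per library come with the study. By it, C0 would keep 229.9 of its 571 interactions at the level of N2, against 1256 listed at N2. At the level of N1, C0 would keep 33.7 and N2 would keep 344, against the 22 that N1 listed. When contacts were instead reduced to the expected counts of the other group at the same distance, which differ from C0 by more than the read pairs do, C0 would keep 108 at the level of N2, and C0 and N2 would keep 13.4 and 318 at the level of N1. The number at N1, with its interval of 13.8 to 33.3, thus lay between the values that the 2 reductions gave for C0, and below both values for N2. This sum counts only pairs already listed and leaves out pairs that a shallower list might gain.

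Middle-range cis-interactions were more numerous at N2 than at C0 on 30 of 30 chromosomes, and the interval of the N2 over C0 ratio lay above 1 on 21 of them. Over the genome the densities were 18.5, 0.712 and 40.6 per Mb in C0, N1 and N2, where the length of a chromosome is the last position that a cis list gives for it. At C0 the density was lowest on chromosome 2, with 9.004 per Mb (15 interactions), and highest on chromosome 29, with 46.5 per Mb (27 interactions). Of these 27, 12 shared the single bin 394001 to 395000, so the rank of chromosome 29 leans on that bin. At N2 it was lowest on chromosome 12, with 17.2 per Mb (20 interactions), and highest on chromosome 28, with 70.1 per Mb (41 interactions). Chromosome 2 also had the highest N2 over C0 ratio, 4.53 (2.57 to 8.54), from 15 to 68 interactions. Chromosome 29, the densest at C0, had the lowest, 1.30 (0.762 to 2.23), from 27 to 35. The number at C0 enters both the density and, as its divisor, the ratio, so these 2 rankings are not independent. At N1, 12 chromosomes had any, and the highest density was 3.10 per Mb on chromosome 9, with 4 interactions.

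**Figure D3:**
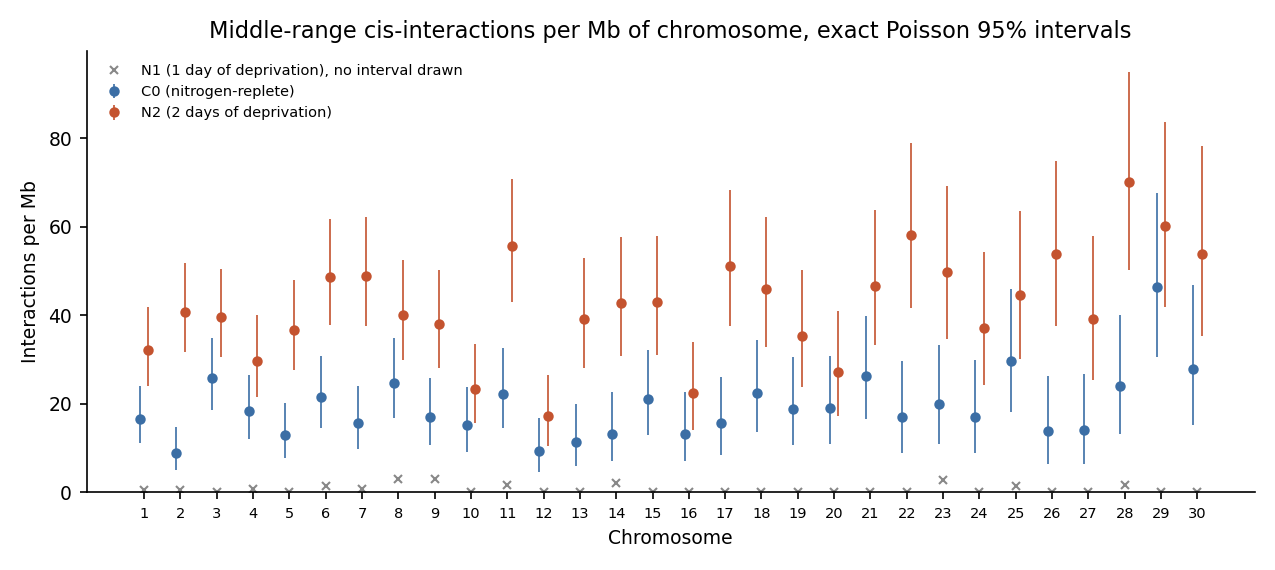
Middle-range cis-interactions per Mb (y axis) on each of the 30 chromosomes (x axis) at C0, N1 and N2, with exact Poisson 95% intervals for C0 and N2. N2 lies above C0 on each chromosome, from 17.2 on chromosome 12 to 70.1 on chromosome 28, and the gap is narrowest in proportion on chromosome 29.

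Along the chromosomes, a smaller share of bins lay near an end at N2 than at C0. Of the 1142 bin ends at C0 (2 per interaction), 4.03% lay within 20 kb of a chromosome end, against 3.88% of all positions. Of the 2512 bin ends at N2, 1.83% did. Within 50 kb of an end the shares were 9.72% at C0 and 5.89% at N2, against 9.70% of all positions. The number within 20 kb was 46 in both groups, so the lower share at N2 goes with the larger number elsewhere.

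Most interactions were not shared between groups. C0 and N2 had 142 bin pairs in common, which were 24.9% of those at C0 (21.4 to 28.6) and 11.3% of those at N2 (9.61 to 13.2). Among all cis bin pairs, 35.6% of those at C0 were also listed at N2 and 31.5% of those at N2 were also listed at C0, and both values lie above the intervals of the middle-range pairs. The shared part of C0 was 30.03% at 11 to 20 kb, 13.0% at 21 to 30 kb, 21.3% at 31 to 50 kb and 16.3% at 51 to 100 kb. For comparison, 32.3% of the C0 interactions of 4 to 10 kb were shared. As a share of N2, the shared pairs were 17.9% at 11 to 20 kb and 33.5% at 4 to 10 kb. When both bins were allowed to shift by up to 5 bins, 244 of the C0 interactions (42.7%) had a counterpart at N2.

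Among the 142 shared pairs the ratio was higher at N2 for 138 (97.2%) and lower for 4, near the 96.3% of all shared cis pairs that were higher. The median N2 over C0 fold of the ratio was 1.65 (range 0.882 to 3.63), beside 1.44 over all 1588 shared cis pairs, and a pair must pass the higher limit of N2 to be among them. The fold was at least 2 for 31 pairs, or 21.8%, against 9.26% of all shared cis pairs. Its interval lay above 1 for 53 pairs (37.3%), against 40.2% of all shared cis pairs, and below 1 for 0, against 0% of all. The pairs with the highest and lowest folds were picked after their values were seen. The highest fold, 3.63 (1.82 to 7.56), belonged to bins 294001 to 295000 and 343001 to 344000 of chromosome 21, with 14 contacts at C0 and 25 at N2. The lowest, 0.882 (0.505 to 1.51), belonged to bins 322001 to 323000 and 333001 to 334000 of chromosome 3, with 37 contacts at C0 and 24 at N2.

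Bin pairs listed in all 3 groups numbered 4, all between 11 and 26 kb apart. The pair at 305001 to 306000 and 316001 to 317000 of chromosome 8 had the highest contact count of all at C0 and at N2. It had 68, 15 and 88 contacts in C0, N1 and N2, with ratios of 3.62, 7.52 and 6.87. The pair at 954001 to 955000 and 971001 to 972000 of chromosome 9 had 46, 14 and 70 contacts and ratios of 4.66, 9.49 and 8.59. The pair at 1144001 to 1145000 and 1160001 to 1161000 of chromosome 9 had 22, 13 and 16 contacts and ratios of 5.86, 12.9 and 8.93. The pair at 19001 to 20000 and 45001 to 46000 of chromosome 23 had 35, 15 and 29 contacts and ratios of 5.08, 13.1 and 8.34. The contact counts were lowest and the ratios highest at N1 for all 4 pairs. N1 had the lowest expected counts and needed the largest ratios for a listing, so this order follows in part from the choice of pairs. The interval of the N1 over C0 fold lay above 1 for all 4. That of the N2 over N1 fold lay above or below 1 for 0 of the 5 pairs that N1 and N2 share. From C0 to N2 the ratio changed by a fold of 1.90 (1.37 to 2.64) for the chromosome 8 pair and 1.84 (1.25 to 2.73) for the first chromosome 9 pair. The intervals of the other 2 included 1.

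The other pairs with the highest contact counts were all 11 to 17 kb apart, where expected counts are largest. At C0 they lay on chromosomes 5 (57 contacts, ratio 2.92), 3 (55 contacts, 2.52), 19 (54 contacts, 2.89) and 20 (54 contacts, 2.51). At N2 the second was the pair at 1430001 to 1431000 and 1441001 to 1442000 of chromosome 4, with 79 contacts and a ratio of 17.3 (13.7 to 21.5), against 43 contacts and a ratio of 6.80 (4.92 to 9.17) at C0. The intervals of that pair did not overlap, with a fold of 2.54 (1.73 to 3.77). The pair at 956001 to 957000 and 967001 to 968000 of chromosome 8 went the same way, from 44 contacts and a ratio of 5.76 at C0 to 67 contacts and a ratio of 14.0 at N2. The pair at 295001 to 296000 and 306001 to 307000 of chromosome 21 had 68 contacts at N2 (ratio 5.14). It was not listed at C0, where a pair of these bins needed more than 61.

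The highest ratios belonged to longer pairs with few contacts. At C0 the highest, 19.7 (8.52 to 38.9), rested on 8 contacts between bins 1066001 to 1067000 and 1165001 to 1166000 of chromosome 2, which were also at the longest distance, 99 kb. The next, 17.8 (10.4 to 28.5), rested on 17 contacts 34 kb apart on chromosome 3. At N2 the highest, 34.0 (13.7 to 70.0), rested on 7 contacts between bins 343001 to 344000 and 432001 to 433000 of chromosome 21. The same first bin had 21 contacts and a ratio of 33.7 (20.8 to 51.5) with bin 292001 to 293000, 51 kb away. The interval of that pair lay wholly above 8.71, the highest ratio it could have had at C0 without a listing, and C0 did not list it. On chromosome 22, bins 550001 to 551000 and 622001 to 623000 had 13 contacts at C0 and 26 at N2, with ratios of 12.9 (6.87 to 22.1) and 30.1 (19.7 to 44.2).

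A pair missing from a list can have had contacts below its threshold, so each unshared pair was set against the limit it would have had to pass. Of the 1114 pairs listed at N2 and not at C0, 461 had bias factors for both bins at C0. The ratio interval at N2 lay above the C0 limit for 166 of them, or 36.0%, against 39.7% of all such cis pairs of 4 kb or more. That share is near the share of the whole lists. The ratio at N2 was at least 2 times the C0 limit for 62 and at most 3.87 times, the latter for the pair of chromosome 21 at 51 kb. Of the 429 pairs listed at C0 and not at N2, 158 had factors at N2. The C0 ratio exceeded the N2 limit for 8, and its interval did so for 0, against 0.956% of all such cis pairs. For these 158 pairs, a loss could thus not be told apart from the limit at N2, and the other 271 were not set against a limit.

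Chromosomes were cut into 630 windows of 50 kb to locate gains and losses, counting each bin end once. Windows with any bin end numbered 375, 29 and 456 in C0, N1 and N2. Of them, 143 had bin ends at N2 but not at C0 and 62 at C0 but not at N2. From C0 to N2, 141 windows on 30 chromosomes gained at least 5 bin ends and 9 lost at least 5. All windows together held 1142 bin ends at C0 and 2512 at N2, so gains go with the larger total. A window with fewer than 5 bin ends at C0 could not lose 5. A change of at least 10 was found in 42 windows that gained and in 1 that lost. The 141 windows held 326 bin ends at C0 and 1527, or 60.8% of all, at N2. Gains of this size thus lay in 141 of 630 windows, spread over all chromosomes.

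**Figure D4:**
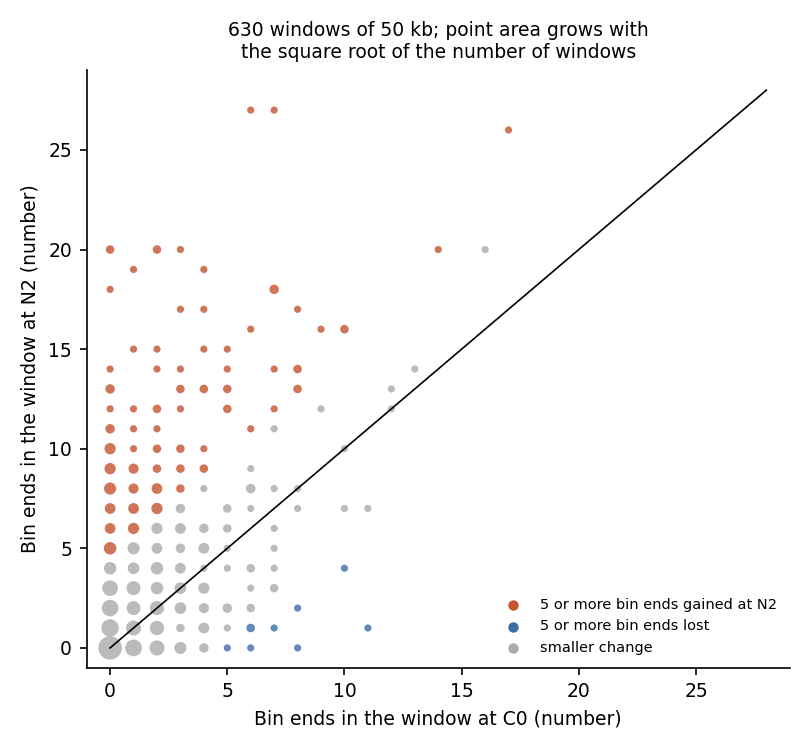
Bin ends of middle-range cis-interactions per 50-kb window at C0 (x axis) and N2 (y axis) in 630 windows, with the line of equal numbers; point area grows with the square root of the number of windows at that position. Windows that gained 5 or more (141) reach 27 bin ends at N2, and those that lost 5 or more (9) start from at most 11 at C0.

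The largest gain was in 350001 to 400000 of chromosome 11, from 6 bin ends at C0 to 27 at N2. Its leading bin, 383001 to 384000, had 2 partners at C0 and 8 at N2. The window 550001 to 600000 of chromosome 22 went from 7 to 27 bin ends, of which a single bin held 16. The windows 150001 to 200000 of chromosome 2 and 1200001 to 1250000 of chromosome 5 both went from 0 to 20. In the chromosome 2 window the 20 bin ends were spread over 6 bins with at most 5 partners, whereas in the chromosome 5 window 1 bin had 10 partners. Gains of 18 were found on chromosomes 6 (1 to 50000), 7 (650001 to 700000), 14 (700001 to 750000) and 27 (500001 to 550000). Over these 8 windows, 47 pairs listed only at N2 had a limit at C0, and 12 had an interval above it. Over all middle-range pairs listed only at N2 it was 166 of 461, or 36.0%, a larger share. The 12 were 4 of 10 on chromosome 14, 2 of 12 on chromosome 11, 2 of 5 on chromosome 22, 2 of 4 on chromosome 6, 1 of 8 on chromosome 7 and 1 of 3 on chromosome 27. In the windows that went from 0 to 20 they were 0 of 1 on chromosome 2 and 0 of 4 on chromosome 5.

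Losses were smaller. The largest was in 1500001 to 1550000 of chromosome 3, from 11 bin ends at C0 to 1 at N2, and 7 of the 11 belonged to bin 1542001 to 1543000. In 50001 to 100000 of chromosome 20 the number went from 8 to 0. Losses of 6 were found on chromosomes 6, 7, 10 and 14. Of these 6 windows, 3 (on chromosomes 3, 6 and 14) had no pair listed at C0 only with bias factors at N2, so no limit could be set there. In the other 3, 8 such pairs had a limit at N2, and 0 of them had an interval above it, as was found for 0 of all 158.

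Bins with many partners were more numerous at N2, as counted within each list. Bins with at least 2 partners numbered 166 of 846 (19.6%) in C0, 2 of 42 in N1 and 469 of 1372 (34.2%) in N2. Bins with at least 5 partners numbered 13, 0 and 94 in C0, N1 and N2. Of the 13 bins, 11 also had at least 5 partners at N2, and of the 94 bins, 31 had no middle-range partner at C0. Over all middle-range bins, 374 took part in both groups, which were 44.2% of the 846 at C0 and 27.3% of the 1372 at N2. Bins with at least 5 partners at N2 thus had a partner at C0 more often than the bins of N2 as a whole. Interactions with such a bin at either end made up 17.2% of those at C0 and 51.035% of those at N2. Among the 374 bins present in both groups, 153 had more partners at N2, 33 had fewer and 188 had as many. Since N2 has more interactions, more partners per bin go with the higher total.

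The bin with the most partners at C0 was 343001 to 344000 of chromosome 21, with 13. They lay on both sides, 6 to the left and 7 to the right, from 11 to 66 kb away, with ratios of 5.43 to 13.2. At N2 it again had 13 partners, of which 5 were the same bins, with ratios of 6.32 to 34.0. Added up over the partners of each list, which differ and passed different limits, contacts were 7.26 times those expected at C0 and 14.0 times at N2, so these sums do not measure a change of the bin. Its bias factor was 0.683 at C0 and 0.564 at N2, so it was a bin with few contacts overall.

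Bin 394001 to 395000 of chromosome 29 had 12 partners at C0 and 14 at N2, 5 of them the same, with summed ratios of 7.21 and 11.3 and bias factors of 0.503 and 0.555. The 0.503 was the lowest factor of any middle-range bin at C0, near the lowest in the lists, 0.500. Bin 838001 to 839000 of chromosome 15 had 9 partners at C0 and 14 at N2, of which 6 were the same bins, with summed ratios of 4.67 and 6.84. Its bias factor was high, 1.40 at C0 and 1.99 at N2. Bin 265001 to 266000 of chromosome 18 had 8 and 14 partners, 2 of them the same, with summed ratios of 4.37 and 5.68. Bin 333001 to 334000 of chromosome 3 had 9 and 8 partners, with summed ratios of 5.46 and 9.36. The leading bins thus had factors both well below and well above 1. The factor of a bin enters the expected counts of all its partners, so their ratios are not independent. An error in it would shift all of them together, which was not tested.

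The most connected bin at N2 was 550001 to 551000 of chromosome 22, with 16 partners against 4 at C0, and all 4 were kept. Of the 16, 5 lay to the left and 11 to the right, from 15 to 74 kb away, with ratios of 7.29 to 30.1, against 4.02 to 12.9 for the 4 at C0. At the right it met runs of neighbouring bins, at offsets of 15 to 18 kb and of 72 to 74 kb. Bin 712001 to 713000 of chromosome 14 had 14 partners at N2 and none listed at C0, where its bias factor was 1.55 against 1.69 at N2. Its 357 contacts at N2 were 5.60 times the expected count, with ratios of 3.43 to 7.82. These 7 leading bins had 0 middle-range partners at N1, which listed only 22 such interactions in all. The leading bins of chromosomes 21, 29, 3 and 22 were in no cis-interaction of N1, so no limit could be set for them there.

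**Figure D5:**
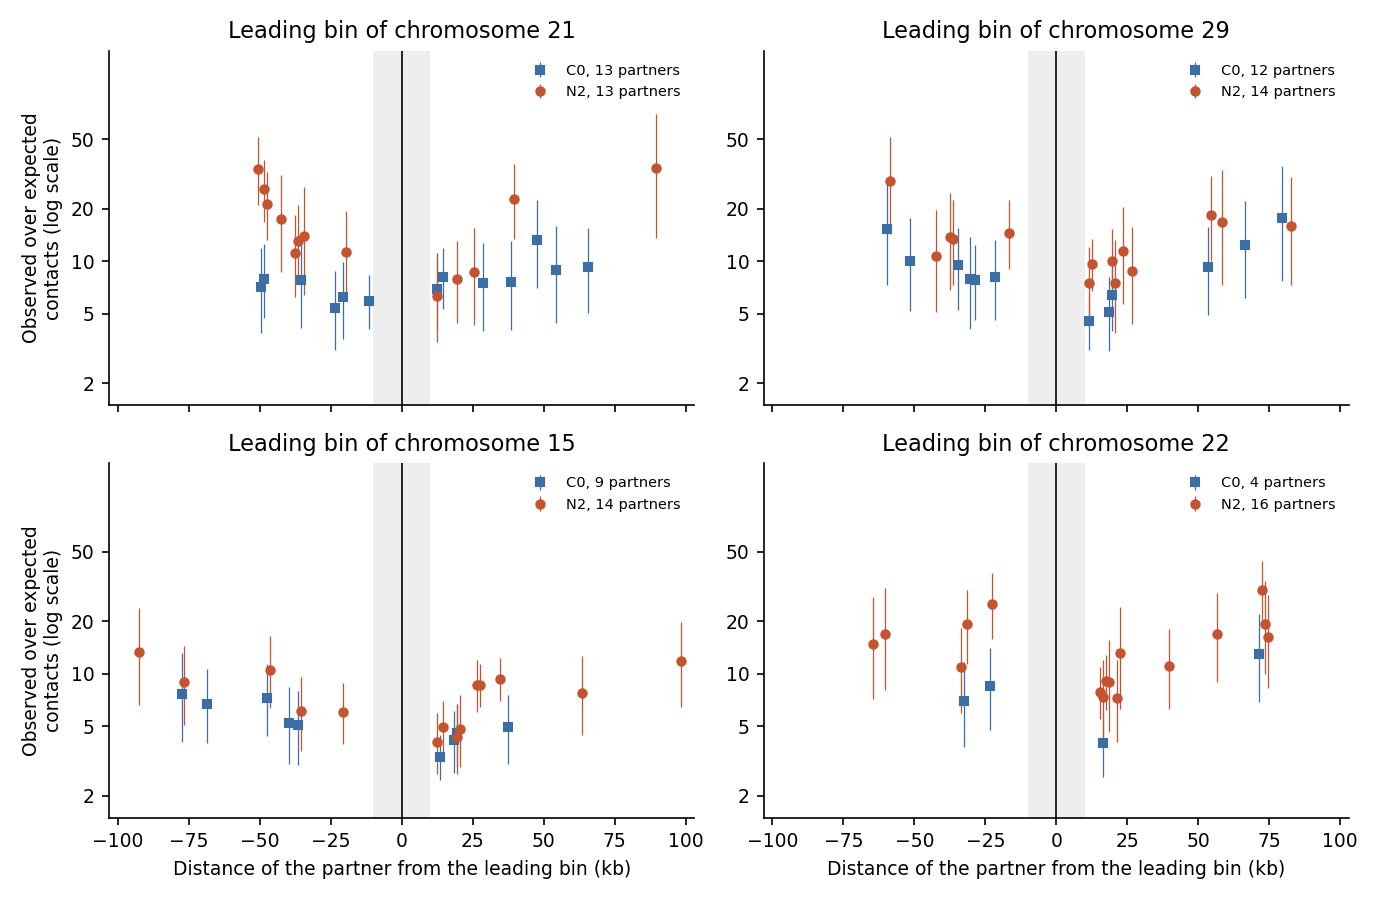
Ratio of observed to expected contacts (y axis, log scale, with exact Poisson 95% intervals) of each partner of 4 leading bins against its distance from that bin in kb (x axis) at C0 (squares) and N2 (circles, the groups drawn slightly apart); the grey band marks distances up to 10 kb, which are outside the range. The partners lie on both sides, with ratios up to 34.0 at N2 for the bin of chromosome 21 and 4 partners at C0 against 16 at N2 for the bin of chromosome 22.

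Interactions joined into larger networks at N2. When bins were linked by their interactions, C0 formed 281 separate groups of bins, 168 of them single pairs, and N2 formed 245, 97 of them single pairs. Groups of at least 10 bins numbered 9 at C0, with 106 bins, and 39 at N2, with 635 bins. The largest at C0 had 18 bins in 322001 to 519000 of chromosome 29, and the largest at N2 had 31 bins in 149001 to 491000 of chromosome 28. Sets of 3 bins that all contacted each other numbered 6, 0 and 95 in C0, N1 and N2. Of all chains of 2 interactions through a shared bin, 2.78% at C0 and 9.03% at N2 were closed in this way. These measures also rise with the number of interactions, and their dependence on it was not tested.

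Bias factors differed between the groups. Bins of middle-range cis-interactions had median factors of 1.07, 0.843 and 1.30 in C0, N1 and N2, beside 1.03, 0.843 and 1.11 for the bins of all cis-interactions. Bins with a factor above 1.5 made up 22.8%, 9.52% and 35.2% of the middle-range bins. Both bins had a factor above 1 in 27.1%, 4.55% and 49.8% of the interactions, beside 26.0%, 8.02% and 40.1% of all cis-interactions. The share at N2 was thus the highest of the 3, within its middle-range pairs and within its whole list. In the 374 bins that took part in both groups the factors had close medians of 1.17 at C0 and 1.16 at N2, with a median N2 over C0 quotient of 0.994. Of these bins, 48.1% had a higher factor at N2. Over the 2728 bins in cis-interactions of both groups the median quotient was 0.926, and 32.5% were higher at N2. Across the 374 bins, the factors of C0 and N2, which come from different libraries and the same bins, had a Pearson correlation of 0.872.

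Factors set how large a ratio had to be. At C0 the median ratio was 6.92 where both factors were below 1, 4.68 where 1 was, and 3.40 where both were above 1. At N2 the medians were 10.54, 7.19 and 5.37 in the same order. The median contact counts went the other way, 17, 24 and 33 at C0 and 14, 17 and 24 at N2. Within each of these 3 kinds of pair the median ratio was higher at N2 and the median count lower. Expected counts at the same distance were also lower at N2, so a listing there needed a larger ratio and fewer contacts. When only pairs with both factors between 0.8 and 1.2 were kept, 70, 5 and 112 remained in C0, N1 and N2, an N2 over C0 ratio of 1.60.

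Many of these bins also took part in shorter cis-interactions. Of the middle-range bins of C0, N1 and N2, 65.4%, 42.9% and 70.9% were also in an interaction of 10 kb or less. For interactions over 100 kb the shares were 5.91%, 0% and 9.99%. Bins found in neither numbered 284 of 846, 24 of 42 and 385 of 1372.

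The 22 interactions at N1 used 42 bins. Of the 22, 4 (18.2%, interval 5.19 to 40.3) were also listed at C0 and 5 (22.7%, 7.82 to 45.4) at N2. Among all 948 cis bin pairs of N1, 373 were also listed at C0 and 452 at N2. Of the 22, 12 had a counterpart within 5 bins at N2. The highest contact count, 22, was between bins 1580001 to 1581000 and 1591001 to 1592000 of chromosome 1 (ratio 10.8, 6.79 to 16.4), which was listed neither at C0 nor at N2. The highest ratio, 38.4 (14.1 to 83.5), rested on 6 contacts between bins 384001 to 385000 and 481001 to 482000 of chromosome 23, the longest pair at N1. Bins 954001 to 955000 of chromosome 9, which formed one of the pairs found in all groups, had the further partner 915001 to 916000 at N1, with 8 contacts and a ratio of 26.0 (11.2 to 51.3). The expected counts behind the ratios above 15 at N1 were under 1 contact, and their intervals are accordingly wide.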

How the data were processed

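Cells of N. oceanica IMET1 were profiled by Hi-C at C0, N1 and N2. By the methods of the study, the authors trimmed the reads with Trimmomatic, mapped them with the ICE package to genome version V2, pooled both replicates and called interactions with Fit-Hi-C, keeping contact counts above 2 and q-values below 0.01. The methods name 10-kb bins and a lower distance of 10 kb, whereas the deposited lists hold 1-kb bins from 2 kb apart, so the settings behind the lists are not known. HiC-Pro and edgeR, which the submitters' processing notes also name, served for contact maps and differential interactions by the methods.

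The deposited contact counts are raw counts per bin pair that the authors made from pooled replicates, with no correction for depth. Fit-Hi-C gave each pair its deposited p-value and q-value, and the deposited score of each bin is its bias factor, between 0.500 and 2.00. Trans lists and the authors' own lists of shared interactions were not used.

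The expected count was taken as the Poisson mean for which counts as high as the one observed have the listed p-value. After division by the bias factors, those of 1 distance spread over no more than 0.000413%. The limit of a pair missing from a list was the highest count that would have gone unlisted at its expected count, given factors from other pairs of that list. Scripts used Python 3.11.15, SciPy 1.17.1, pandas 2.3.3 and networkx 3.6.1, and were tested on simulated data. Library depth entered only through the expected counts and, as an alternative, the cis valid read pairs that the study gives. Bin coordinates are those of the authors' genome version, counted from 1. Nuclear genes and sequences were not used here.

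The bin pairs, bins, windows and chromosomes named are the 5 leading ones by contact count, ratio, partners, gain or loss, ties included, the chromosomes at the extremes, the longest pair per group and the pairs in all 3 groups; not all are described. The members and these lists were chosen with earlier results of these data known.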

Additional observations from a re-analysis of the deposited data

How the results depend on the processing

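N2 exceeded C0 in all 14 alternatives tried for their ratio, which ran from 1.60 to 23.8. All of them drew on the same lists. Reducing C0 alone to the level of N2 could only lower its number, so those alternatives could not have come out otherwise. The cut-offs on the ratio removed a larger part of C0, which needed smaller ratios for a listing. With a q-value below 0.001 the numbers for C0, N1 and N2 came to 307, 11 and 822, a ratio of 2.68. Over 20 kb they were 218, 6 and 663, a ratio of 3.04, and 16.5% of the C0 pairs were shared with N2. With both bias factors between 0.8 and 1.2 they were 70, 5 and 112, a ratio of 1.60. Reduced to the expected counts of N2, C0 kept 108, a ratio of 11.6. Chosen after seeing the data were a ratio of at least 8 (69 at C0 and 393 at N2, 5.70 times), a lower limit of the ratio of at least 5 (45 and 308, 6.84 times), the expected counts of N1 (13.4 and 318, 23.8 times), the cis valid read pairs of N2 (229.9 at C0, 5.46 times) and those of N1 (33.7 and 344, 10.2 times). Matching within 5 bins gave 42.7% shared. A change of at least 10 bin ends left 42 windows with a gain and 1 with a loss. The other 31 of 63 values stayed close to those reported, among them those without chromosome 3, which has the most interactions, and those without the first and last 20 kb of each chromosome. Counting error limits the ratios of single pairs, most of which rest on at most 31 contacts. No paired analysis was possible because the authors pooled the replicates into 1 list per group, and leaving out a replicate could not be run for the same reason.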
